A study of Mus musculus with 12 samples.

Results

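Epha2, Slc4a11, Fam198b (also named Gask1b) and Ak1 were followed over the 4 groups of an RNA-seq experiment in RAW264.7 cells, a mouse macrophage line. These 4 genes, of 32688 in the count table, were selected on their measured counts in these libraries, for large rises with etoposide that depended on genotype to differing degrees. Their own response to the drug and its genotype dependence are therefore described without a test. The groups were Null cells (which the study calls WT) and TFEB/TFE3 DKO cells, in which both genes were targeted by CRISPR. Cells of each genotype were taken as controls or after 8 h in 100 µM etoposide, a topoisomerase II poison that causes DNA breaks, with 3 libraries in each group. The labels call the controls untreated, whereas the methods of the study name DMSO. Null and DKO cells are 1 line each, and the spread between replicates therefore does not include that between separately made lines.

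The 4 genes encode unrelated proteins. Epha2 is a receptor tyrosine kinase that binds membrane-anchored ephrin-A ligands on neighbouring cells, and it is best known from epithelial cells. Slc4a11 belongs to the SLC4 family of membrane transporters, whose other members mostly carry bicarbonate, and it is known for its role in the corneal endothelium. Fam198b is a membrane protein of the Golgi apparatus related to the secretory-pathway kinases. Ak1 is the cytosolic adenylate kinase, which interconverts ATP, ADP and AMP. DNA breaks activate p53, a transcription factor that raises a well known set of target genes, and a list of these was used as a yardstick. TFEB and TFE3 are related transcription factors of lysosomal and stress genes.

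All 4 genes passed the filter on low counts with 18066 genes in all. Library totals lay between 29837255 and 61809316 counts, and mitochondrial transcripts took 14.12% to 21.69% of them. Levels are given as CPM, counts scaled to library sizes that were adjusted by TMM. Differences are given on the log2 scale from a limma-trend fit of all 12 libraries with a prior count of 3, with their standard errors (SE). As a check of the genotype, control cells had 16.8 ± 0.286 CPM of Tfeb in the Null and 4.40 ± 1.12 CPM in the DKO line, and 104 ± 14.8 and 37.8 ± 5.71 CPM of Tfe3 (SD, n = 3), so that the DKO libraries kept a reduced amount of both transcripts. The titles of the DKO etoposide group say RAW264.7 MEFs (mouse embryonic fibroblasts), whereas its other labels say RAW264.7. They also say TFEB/TFE3 without the word DKO. This group had 4.34 ± 0.0894 CPM of Tfeb and 37.7 ± 3.20 CPM of Tfe3, against 7.56 ± 0.427 and 101 ± 2.02 CPM in Null etoposide cells (SD, n = 3). In the DKO etoposide libraries 8 macrophage markers summed to 4585 to 4775 CPM and 8 fibroblast markers to 1.01 to 1.20 CPM. In bulk RNA, a change in the share of cells that express a gene cannot be told apart from a change in RNA per cell.

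The 4 genes lie at 4 loci, given here as annotated in GENCODE M21 (GRCm38), and all are protein coding. Epha2 (ENSMUSG00000006445.3) lies on the plus strand at chr4:141301240-141329384, and Slc4a11 (ENSMUSG00000074796.10) on the minus strand at chr2:130684113-130697519. Fam198b (ENSMUSG00000027955.16) lies on the plus strand at chr3:79884533-79946280, and Ak1 (ENSMUSG00000026817.14) on the plus strand at chr2:32621758-32635058. Promoter windows of RefSeq (GRCm38.p6), running from 250 bases before to 50 bases after a transcription start, were matched for Epha2, Fam198b and Ak1, and not for Slc4a11. Epha2 and Fam198b had 1 window each and Ak1 had 4. The windows below are printed 5′ to 3′ on the plus strand because they show which short motifs stand at the starts of genes that rose together, and capitals mark the matches. The motifs searched on both strands were the p53 core decamer by its usual consensus, the E-box CACGTG that TFEB and TFE3 are known to bind, the AP-1 site TGANTCA, the TATA box TATAAA and the cAMP response element TGACGTCA. The last of these was added after the windows had been seen. The TGACGTCA and TGANTCA motifs did not overlap in any window shown.
Epha2, chr4:141300971-141301270: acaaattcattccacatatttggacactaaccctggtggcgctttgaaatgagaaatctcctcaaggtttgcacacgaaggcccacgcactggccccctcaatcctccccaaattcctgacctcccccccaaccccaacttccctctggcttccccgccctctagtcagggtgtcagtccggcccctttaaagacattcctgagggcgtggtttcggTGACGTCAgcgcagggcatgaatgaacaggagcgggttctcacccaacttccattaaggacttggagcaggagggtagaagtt
Fam198b, chr3:79885680-79885979: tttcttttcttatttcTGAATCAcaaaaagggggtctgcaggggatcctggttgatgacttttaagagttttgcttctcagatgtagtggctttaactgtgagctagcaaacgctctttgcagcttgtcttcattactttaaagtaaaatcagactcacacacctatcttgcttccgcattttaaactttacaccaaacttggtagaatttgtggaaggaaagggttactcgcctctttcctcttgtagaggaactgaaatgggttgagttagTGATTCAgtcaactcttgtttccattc
Ak1 window 2, chr2:32625187-32625486: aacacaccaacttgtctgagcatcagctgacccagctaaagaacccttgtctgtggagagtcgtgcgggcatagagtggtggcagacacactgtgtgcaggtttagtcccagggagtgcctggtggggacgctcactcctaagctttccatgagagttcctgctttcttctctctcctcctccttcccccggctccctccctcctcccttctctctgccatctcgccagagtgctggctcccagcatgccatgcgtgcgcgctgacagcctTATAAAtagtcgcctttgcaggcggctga
Ak1 window 3, chr2:32628140-32628439: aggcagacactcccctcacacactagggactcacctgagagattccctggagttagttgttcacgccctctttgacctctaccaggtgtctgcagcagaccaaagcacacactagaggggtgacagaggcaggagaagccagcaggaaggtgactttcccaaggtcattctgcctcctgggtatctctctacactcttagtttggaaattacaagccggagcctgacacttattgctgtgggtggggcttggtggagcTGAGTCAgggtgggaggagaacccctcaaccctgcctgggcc

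None of the 6 windows held the p53 decamer or the E-box, which were present in 8.36% and 7.15% of all 32851 RefSeq windows of this length. The Epha2 window held 1 cAMP response element, with its first base at -33 from the start, and 1.79% of all windows held such a match. In the Fam198b window there were 2 AP-1 matches, TGAATCA at -234 and TGATTCA at +24. Of the 4 Ak1 windows, window 3 had an AP-1 match (TGAGTCA at +9) and window 2 a TATA box at +22, while windows 1 and 4 had none of the motifs. AP-1 matches were present in 7.81% and TATA boxes in 13.6% of all windows. These matches are letters in a window and no measurement of binding, and their absence says nothing about sites elsewhere.

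Epha2 was low in Null control cells, already higher in DKO control cells, and high in both genotypes after etoposide. It was measured at 3.89, 3.41 and 3.07 CPM in the Null control libraries and at 207, 210 and 197 CPM in the Null etoposide libraries. In DKO cells it was at 15.1, 21.6 and 20.7 CPM without the drug and at 126, 107 and 137 CPM with it. The groups did not overlap at any step, and their order was Null control, DKO control, DKO etoposide, Null etoposide. DKO cells thus started higher and ended lower. The group means were 3.46 ± 0.412 and 205 ± 6.91 CPM in Null cells, a 59.2-fold ratio, and 19.2 ± 3.52 and 123 ± 15.2 CPM in DKO cells, a 6.44-fold ratio (SD, n = 3). On the log2 scale the rise was 5.87 (SE 0.14) in Null and 2.69 (SE 0.14) in DKO cells. Without the drug the DKO level was 2.44 above the Null level on that scale, and after it 0.74 below (difference -0.74), so that the interaction, the DKO response minus the Null response, was -3.18 (SE 0.20). The larger share of this interaction was the difference between control cells. In CPM, the DKO rise was 51.8% of the Null rise.

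Slc4a11 was nearly silent in control cells of both genotypes. In the Null control libraries it was at 0.713, 0.424 and 0.515 CPM, that is, 22, 21 and 25 counts. The Null etoposide libraries held 40.1, 36.5 and 43.0 CPM, the DKO control libraries 1.15, 1.13 and 1.22 CPM and the DKO etoposide libraries 16.4, 18.0 and 18.2 CPM. The order of the groups was that of Epha2, again without overlap. The means rose from 0.551 ± 0.148 to 39.8 ± 3.25 CPM in Null cells (72.3-fold) and from 1.17 ± 0.0477 to 17.5 ± 0.970 CPM in the DKO line (SD, n = 3). The log2 rises were 6.05 (SE 0.15) and 3.84 (SE 0.15), and the interaction was -2.21 (SE 0.22). The DKO level was 1.03 above the Null level on the log2 scale before etoposide, and after it the difference was -1.18. The DKO rise in CPM was 41.6% of the Null rise, the lowest share of the 4 genes. Null control replicate 1 held the highest of the low starting values, and without it the rise in Null cells was 6.24 and the difference between control cells 1.22.

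Fam198b had a log2 rise close to that of Slc4a11 in Null cells, 6.17 against 6.05. Its levels were 0.713, 0.646 and 0.639 CPM in Null control and 55.8, 47.5 and 52.9 CPM in Null etoposide libraries. In DKO cells they were 0.995, 1.94 and 2.29 CPM before and 37.4, 34.4 and 43.6 CPM after etoposide. The order was again Null control, DKO control, DKO etoposide, Null etoposide without overlap, but the step between the etoposide groups was small, with 43.6 CPM in the highest DKO and 47.5 CPM in the lowest Null library. Mean levels went from 0.666 ± 0.0410 to 52.1 ± 4.21 CPM in Null (78.2-fold) and from 1.74 ± 0.668 to 38.5 ± 4.71 CPM in DKO cells (22.1-fold; SD, n = 3). The log2 rises were 6.17 (SE 0.23) and 4.49 (SE 0.23), and the interaction was -1.67 (SE 0.33). DKO control replicate 1 had the lowest level of its group, and without it the DKO rise was 4.15 and the difference between control cells 1.56 instead of 1.23. In CPM the DKO rise was 71.4% of the Null rise.

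Counts of Fam198b may be shared in part with the antisense gene Gm36569, whose exons overlap those of Fam198b by 711 bases. Gm36569 was at 0.0882 ± 0.0818 CPM in Null control and 4.90 ± 0.458 CPM in Null etoposide cells, and at 0.0550 ± 0.0482 and 2.73 ± 0.518 CPM in the DKO line (SD, n = 3). The strand setting of the counting is not given in the sources used here. If the antisense gene were read evenly along its exons, it could supply 3.69% to 7.10% of the Fam198b counts in the etoposide libraries. By the same reckoning Fam198b could supply 76.9% to 148% of the counts of Gm36569, so the rise of the antisense gene cannot be told apart from that of Fam198b. In Null control replicates 1, 2 and 3 the antisense gene could supply 0%, 18.4% and 11.9% of the Fam198b counts. In the DKO control replicates the shares were 5.56%, 3.41% and 0%. These control shares rest on 0 to 8 counts of Gm36569 per library.

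Ak1 differed from the other 3 genes in that the genotypes overlapped with and without the drug. The Null control libraries were at 2.66, 2.00 and 1.57 CPM and the DKO control libraries at 1.13, 1.90 and 2.23 CPM. After etoposide the Null libraries were at 45.1, 48.5 and 46.4 CPM and the DKO libraries at 53.7, 44.5 and 69.2 CPM. DKO etoposide replicate 3 was the highest and replicate 2 of the same group the lowest of the 6 treated libraries. The means were 2.07 ± 0.550 and 46.6 ± 1.69 CPM in Null (22.5-fold) and 1.75 ± 0.565 and 55.8 ± 12.5 CPM in DKO cells (31.8-fold; SD, n = 3). The log2 rises were 4.48 (SE 0.24) and 4.98 (SE 0.24), and the interaction was 0.49 (SE 0.35). Genotype differences of -0.26 before and 0.23 after the drug were of the size of their SE of 0.24. The DKO rise in CPM was 121% of the Null rise.

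**Figure D1:**
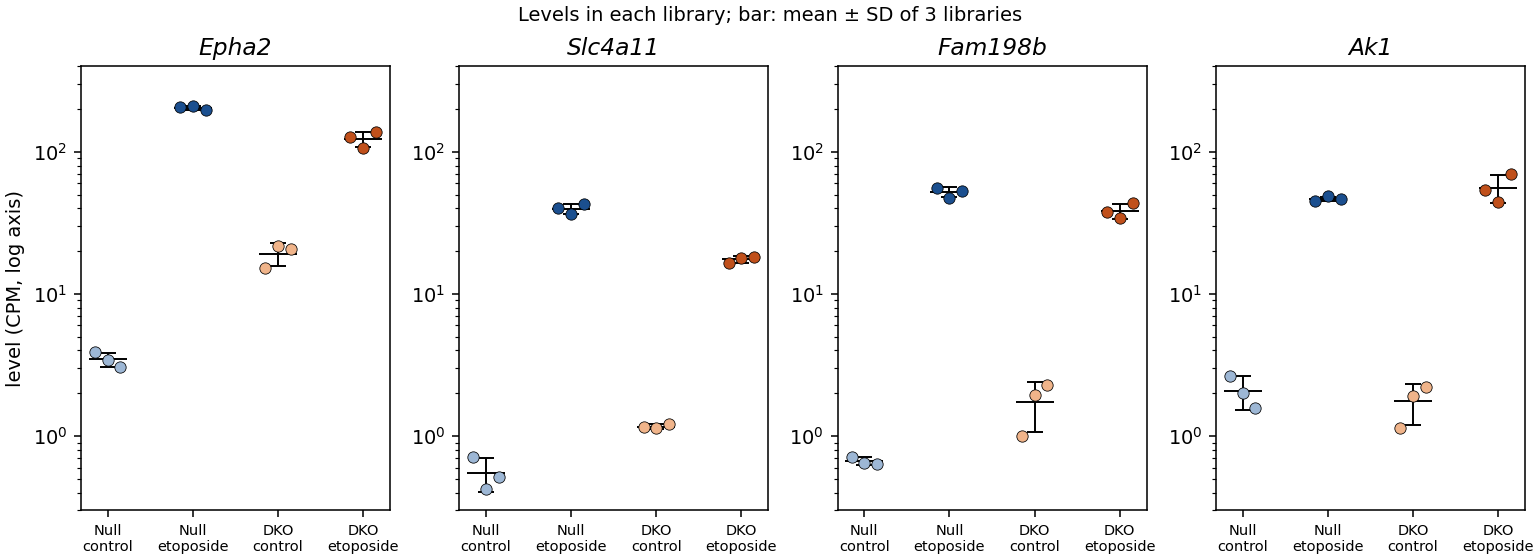
Level of each gene in CPM (log axis) in the 3 libraries of each group, with the mean and SD. Etoposide libraries lie above control libraries of the same genotype in all 4 panels; for Epha2 the DKO control libraries sit at 15.1 to 21.6 CPM against 3.07 to 3.89 CPM in Null control, and for Ak1 the genotypes overlap in both treatments.

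For all 4 genes the etoposide libraries lay above the control libraries of the same genotype without overlap, as they did for 28.1% of all genes tested in Null and 24.2% in DKO cells; since this rise chose the genes, nothing is read from it. In control cells 3 of the 4 genes (all but Ak1) had every DKO library above every Null library, as did 14.3% of all genes, and after etoposide the same 3 had every DKO library below every Null library, as did 28.1% of all genes. Genotype dependence was part of the choice too, so these counts are a description.

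The 4 genes were not the strongest responders of the whole table. By log2 rise in Null cells Fam198b ranked 8th, Slc4a11 11th, Epha2 13th and Ak1 44th of 18066 genes. In DKO cells Ak1 ranked 17th, Fam198b 25th, Slc4a11 45th and Epha2 168th. Ak1, the last of the 4 genes in Null cells, was thus the first of them in DKO cells. The largest fitted rise in Null cells was that of Robo3 (8.87), a guidance receptor, followed by Plk2 (7.15), 5830418P13Rik (7.14) and Cdcp1 (7.07). In DKO cells Il1b (7.46), the gene of interleukin-1 beta, came before Robo3 (7.09). Plk2 held only 2 counts over the 3 Null control libraries against 1764 after the drug, a ratio of 693 after scaling with an exact 95% interval of 192 to 5726 for counting error alone, so its fitted value depends on the prior count. Among the 4 genes the smallest sum over a control group was 68 counts, for Slc4a11 in Null cells.

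Levels between genes were compared only per length, as CPM per kilobase of annotated exon. On that scale Epha2 was at 43.8 in Null etoposide cells, Ak1 at 18.0, Slc4a11 at 7.97 and Fam198b at 5.43. In DKO etoposide cells the order was kept at the top, with Epha2 at 26.4 and Ak1 at 21.5, while Fam198b at 4.01 lay above Slc4a11 at 3.50. Null control cells had 0.740 for Epha2 and 0.800 for Ak1, against 0.110 for Slc4a11 and 0.0694 for Fam198b.

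**Figure D2:**
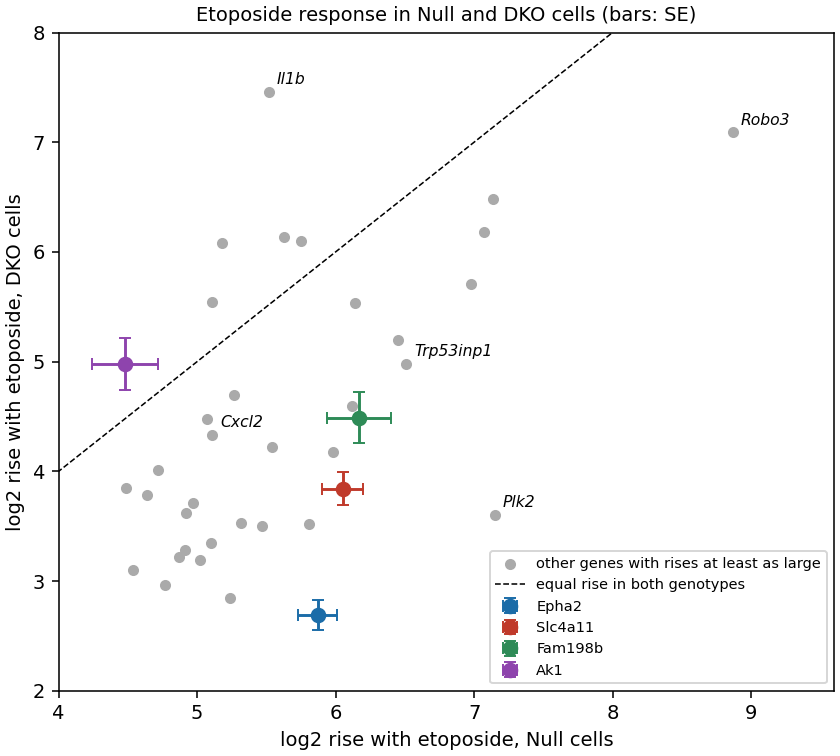
Log2 rise with etoposide in Null cells (x axis) and DKO cells (y axis) for the 4 genes (coloured, with SE) and for 34 other genes that rose at least as much (grey). Epha2 at 5.87 and 2.69, Slc4a11 at 6.05 and 3.84 and Fam198b at 6.17 and 4.49 lie below the line of equal rise, and Ak1 at 4.48 and 4.98 lies above it.

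The interaction of Epha2 was the 38th lowest of all 18066 genes, that of Slc4a11 the 181st lowest and that of Fam198b the 371st lowest. To place them beside genes of like response, the genes with log2 rises of at least 4.48 in Null and 2.69 in DKO cells, the smallest rises among the 4 genes, were listed. There were 34 others. The interaction was called below 0 for 19 of them and above 0 for 1, Il1b (1.93, limma-trend adjusted p = 0.0451). Among all genes the interaction was called for 9.45%, below 0 for 6.39% and above 0 for 3.07%. Their interactions ran from -3.55 (Plk2) to 1.93 with a median of -1.29, and 29 were below 0. A large rise in Null cells enters both the choice of these genes and the interaction, so nothing is read from the excess. Within this set the value of Epha2 (-3.18) was exceeded in size only by that of Plk2, and Ak1 (0.49) was among the minority above 0. Epha2 itself set the limit of 2.69 in DKO cells and Ak1 that of 4.48 in Null cells. Genes with smaller rises in DKO cells were thereby left out, so nothing is read from these places either.

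The list of 36 p53 target genes, of which 35 were tested, gave a yardstick for the drug response. It was written from general knowledge, with earlier results of these data known. The 4 genes were left off all lists on purpose, so their absence from this list says nothing about their regulation by p53. With etoposide 27 of the 35 rose and 2 fell in Null cells, where 39.6% of all genes were called, 20.9% as higher and 18.7% as lower. In DKO cells 22 rose and 2 fell, where 39.3% of all genes were called, 20.2% as higher and 19.1% as lower (limma-trend with Benjamini-Hochberg adjustment over all genes). The median log2 change of the list was 1.79 in Null and 0.91 in DKO cells, against 0.03 over all genes in both. Of the 35 genes only Plk2, Trp53inp1 (6.51) and Phlda3 (5.98) rose more than Epha2 in Null cells, whereas 7 did so in DKO cells. Trp53inp1 in DKO cells, at 4.98, was the single gene of the list above Fam198b there. The 4 genes were chosen for large rises and their dependence on genotype, so these comparisons with the list are a description. Levels of Trp53inp1, a stress-induced p53 cofactor, went from 3.70 ± 0.364 to 342 ± 23.1 CPM in the Null line and from 4.09 ± 0.363 to 130 ± 3.80 CPM in the DKO line (SD, n = 3).

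The genotype pattern of Epha2, Slc4a11 and Fam198b, higher in DKO control cells and lower in DKO etoposide cells, was looked for in the same list. Without the drug 17 of the 35 genes were higher and 2 lower in DKO than in Null cells, where 19.3% of all genes were called, 10.9% as higher and 8.39% as lower. After etoposide 7 were higher and 17 lower, where 33.6% of all genes were called, 15.9% as higher and 17.8% as lower (limma-trend with Benjamini-Hochberg adjustment over all genes). Both calls of the pattern fell on 6 genes, Aen, Ccng1, Fas, Mdm2, Phlda3 and Pmaip1, while 75 genes (0.415%) had both among all genes tested. Fas, a death receptor, was at 0.552 ± 0.0574 CPM in Null control and 1.46 ± 0.143 CPM in DKO control cells, and at 10.7 ± 0.744 and 7.28 ± 0.423 CPM after etoposide (SD, n = 3). For Mdm2, the ubiquitin ligase that restrains p53, the same values were 48.9 ± 4.08, 61.5 ± 8.69, 459 ± 18.2 and 332 ± 8.89 CPM. The interaction was called below 0 for 18 genes of the list and above 0 for Sesn1, against 6.39% and 3.07% of all genes.

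**Figure D3:**
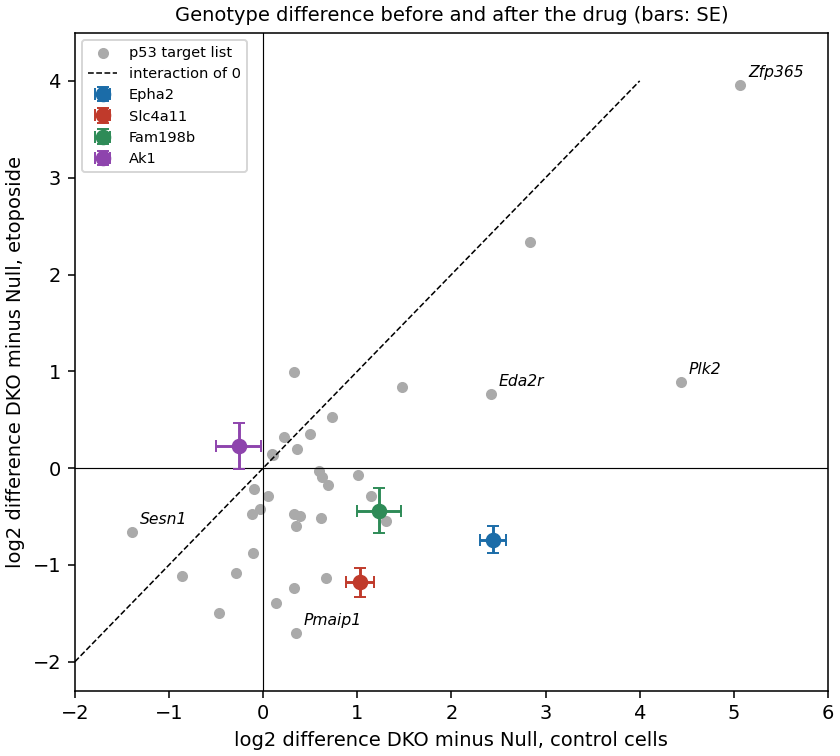
Log2 difference between DKO and Null in control cells (x axis) and after etoposide (y axis) for the 4 genes (coloured, with SE) and the 35 tested p53 target genes (grey). Epha2, Slc4a11 and Fam198b lie at 2.44, 1.03 and 1.23 on the x axis and at -0.74, -1.18 and -0.44 on the y axis, while Ak1 (-0.26 and 0.23) lies near the origin; points below the dashed line have an interaction below 0.

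Across the 12 libraries the log2 levels of the 4 genes moved together, with Pearson correlations from 0.901 (Epha2 and Ak1) to 0.989 (Slc4a11 and Fam198b). The libraries fall into 4 groups and share the drug contrast, so these values are a description without a test. Among all genes tested, the 5 most like Epha2 by this measure were Cdkn1a (0.997), Mxd4 (0.995), Gm42846 (0.994), Slc19a2 (0.992) and Fas (0.990). Cdkn1a, the cyclin-dependent kinase inhibitor p21, was at 48.2 ± 6.10 and 392 ± 5.16 CPM in the Null and at 107 ± 14.9 and 321 ± 31.7 CPM in the DKO line (SD, n = 3), the same order of groups as for Epha2. The genes closest to Slc4a11 were Sdc4 (0.999), Prrg4 (0.997), Ccng1 (0.996), Qsox1 (0.995) and Cd80 (0.995). Prrg4 and Ccng1 were also among those closest to Fam198b, together with Cxcl2 (0.996), Abhd4 (0.996) and Crem (0.995). Ccng1 encodes cyclin G1, and its means were 131 ± 1.27 and 1929 ± 71.6 CPM in the Null and 200 ± 16.4 and 1344 ± 65.4 CPM in the DKO line (SD, n = 3). The list for Ak1 shared no gene with the others and held Dcxr (0.996), Ces2b (0.995), Zc3h12a (0.992), 5830418P13Rik (0.992) and Sema4a (0.990). Dcxr, a carbonyl reductase, was at 9.40 ± 1.45 and 88.9 ± 1.61 CPM in the Null and 9.12 ± 0.890 and 82.5 ± 9.31 CPM in the DKO line (SD, n = 3).

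Other genes of the 4 families were called in both directions. Of 13 other Eph receptors only 3 were tested, of which 1 rose in Null and 2 in DKO cells, with none lower (limma-trend with Benjamini-Hochberg adjustment over all genes, as for every list). Of all 18066 genes 20.9% rose and 18.7% fell in Null cells and 20.2% rose and 19.1% fell in DKO cells, and with so few tested members the counts of the families below are a description of the lists. Ephb2 went from 2 to 17 counts over the 3 libraries in Null cells, a ratio of 6.68 after scaling with an exact 95% interval of 1.59 to 59.6 for counting error, and its call was lost with DESeq2, with the replicate block and in a fit of the Null libraries alone. In DKO cells it went from 0 to 42 counts, at least 11.5-fold higher against a floor of 3 counts over the control group. Epha10 rose in DKO cells from 0.365 ± 0.0548 to 0.763 ± 0.168 CPM (SD, n = 3). Only 1 Eph receptor was called in DKO cells without DKO etoposide replicate 3 and in a fit of the DKO libraries alone.

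Ephrins, the membrane-bound ligands of the Eph receptors, had group means of at most 4.92 CPM (Efnb1). Of 6 tested ephrins 2 rose in Null and 1 in DKO cells, against 20.9% and 20.2% of all genes, and none fell. Efna3 rose from 0.0447 ± 0.0144 to 0.382 ± 0.0399 CPM in the Null line and from 0.108 ± 0.0915 to 0.405 ± 0.0734 CPM in the DKO line (SD, n = 3), log2 changes of 2.09 and 1.59. Efna1 rose in Null cells from 1.16 ± 0.378 to 2.20 ± 0.0832 CPM (SD, n = 3). Of the 13 tested signalling partners of EphA2, 3 rose and 5 fell in each genotype, with medians of -0.33 and -0.27 against 0.03 over all genes in both. The rises were near the share of all genes that rose (20.9% and 20.2%), and the falls lay above the share that fell (18.7% and 19.1%). Src, a tyrosine kinase, rose by 2.86 in DKO cells, from 0.135 ± 0.0709 to 1.29 ± 0.191 CPM (SD, n = 3), and in Null cells its counts over the 3 libraries went from 3 to 92 (ratio 24.1, exact 95% interval 7.99 to 119 for counting error). Rps6ka1, a kinase of the RSK family, rose by 0.53 and 0.62. Pik3r1, the regulatory subunit of PI 3-kinase, fell by 0.90 in Null and 0.48 in DKO cells, and Ptk2, the focal adhesion kinase, fell by 0.75 and 0.38.

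The SLC4 family had 5 tested members beside Slc4a11, of which 2 rose and 1 fell in each genotype, where 20.9% and 20.2% of all genes rose and 18.7% and 19.1% fell. Slc4a2, the anion exchanger AE2, rose from 37.2 ± 0.791 to 59.7 ± 1.35 CPM in the Null line and from 55.8 ± 6.24 to 76.8 ± 3.95 CPM in the DKO line (SD, n = 3), log2 changes of 0.68 and 0.47. Slc4a5 fell by 1.03 and 1.42 from levels below 1 CPM. Slc4a9 went from 1 to 21 counts over the Null libraries (ratio 16.5, exact 95% interval 2.65 to 682 for counting error) and from 0 to 97 counts in DKO cells, at least 26.5-fold higher against the floor of 3 counts over the group. Unlike Slc4a11 it thus ended higher in DKO than in Null cells, at 0.561 ± 0.0312 against 0.128 ± 0.0282 CPM (SD, n = 3). Among 11 tested acid-base partners 2 rose and none fell in Null cells, and 4 rose and 1 fell in DKO cells, so that the Null rises were near the share of all genes (20.9%) and the DKO rises above it (20.2%). The proton channel gene Hvcn1 rose by 0.70 and 0.75. Car2, a carbonic anhydrase, was at 876 ± 128 and 801 ± 18.3 CPM in Null cells, without a call, and rose from 175 ± 27.9 to 466 ± 48.9 CPM in the DKO line (SD, n = 3).

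None of the 7 tested relatives of Fam198b among the Golgi and secretory-pathway kinases rose, while 4 fell in Null and 2 in DKO cells, against 18.7% and 19.1% of all genes that fell. 1190002N15Rik (also named Dipk2a) fell by 1.54 in Null cells, from 28.9 ± 4.22 to 9.84 ± 0.559 CPM, and by 1.31 in DKO cells, from 16.6 ± 2.60 to 6.59 ± 0.197 CPM (SD, n = 3). Pomk, the protein O-mannose kinase, fell by 0.75 in Null cells, and its difference in DKO cells was -0.23 without a call. Fam20c, the main kinase of secreted phosphoproteins, was not called with etoposide and was lower in DKO than in Null cells in both treatments, at 0.332 ± 0.0787 against 8.49 ± 0.807 CPM in control cells (SD, n = 3; log2 difference -4.46, limma-trend adjusted p = 5.09e-09).

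Of 7 other adenylate kinases tested, 2 rose in Null cells and 3 rose in DKO cells, against 20.9% and 20.2% of all genes. Ak8 had the largest fitted changes among these, 3.48 and 2.61, from levels of 0.103 ± 0.0684 and 0.0777 ± 0.0431 CPM to 1.68 ± 0.375 and 0.805 ± 0.345 CPM (SD, n = 3). The mitochondrial Ak3 rose by 0.42 and 0.44, from 49.1 ± 2.59 to 65.7 ± 0.974 CPM in the Null line (SD, n = 3). Ak4, also mitochondrial, rose in DKO cells by 1.14. Among 22 further genes of nucleotide phosphate transfer and AMP metabolism, 7 rose and 5 fell in Null and 7 rose and 4 fell in DKO cells, with medians of 0.12 and 0.10 against 0.03 over all genes. The falls were near the share of all genes that fell (18.7% and 19.1%), and the rises were somewhat above the share that rose (20.9% and 20.2%). Ckmt1, a mitochondrial creatine kinase, had no count in any control library and 86 and 224 counts over the Null and DKO etoposide libraries, at least 22.5-fold and 61.2-fold higher against the floor of 3 counts over each group. Nt5e, the ectonucleotidase CD73, rose by 1.15 and 1.49, and Nme4, a mitochondrial nucleoside diphosphate kinase, by 1.08 and 0.81. The AMP-activated kinase subunit genes Prkaa1 and Prkag2 moved in opposite directions, by 0.31 and -0.61 in Null and by 0.29 and -0.62 in DKO cells.

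The genes around the 4 loci were examined to see how far the rise extended. Within 100 kb, 43 other genes were annotated and 27 tested, of which 10 rose and 4 fell in Null and 9 rose and 5 fell in DKO cells (limma-trend with Benjamini-Hochberg adjustment over all genes; 20.9% and 18.7%, and 20.2% and 19.1%, of all genes did so). The rising genes of both genotypes included Gm36569, whose rise cannot be told apart from that of the overlapping Fam198b. Eng, the TGF-beta co-receptor endoglin, begins 11536 bases beyond Ak1 and rose from 2.51 ± 0.294 to 15.8 ± 0.554 CPM in the Null line and from 5.34 ± 0.232 to 16.7 ± 0.934 CPM in the DKO line (SD, n = 3), log2 changes of 2.63 and 1.64. On the other side of Ak1, St6galnac6 ends 951 bases before it and fell by 0.44 and 0.45. Near Epha2, Arhgef19, a guanine nucleotide exchange factor, went from 1 to 49 counts over the Null libraries (ratio 38.5, exact 95% interval 6.59 to 1551) and from 1 to 29 in DKO cells (ratio 23.8, 3.94 to 970, both for counting error). Itpa, 2498 bases from Slc4a11, rose by 0.24 in Null cells and was not called in DKO cells. Tmem144, next to Fam198b, fell by 0.46 in DKO cells.

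Markers of other cell types were read because Epha2 and Slc4a11 are best known from epithelia and the cornea. The sum of 8 macrophage markers lay between 4193 and 5132 CPM in all 12 libraries. A sum of 8 epithelial markers, among them Epcam and Cdh1, was 0 in every Null control and at most 0.0305 CPM in every DKO control library, and after the drug it ranged from 0.420 to 0.587 CPM in the Null line and from 0.700 to 0.836 CPM in the DKO line. Endothelial markers summed to 2.08 to 3.26 CPM in control and 5.18 to 6.69 CPM in etoposide libraries, and fibroblast markers to 0.152 to 0.928 and 1.01 to 2.04 CPM. No marker of the 4 lists was at 0 in every library, but epithelial Krt8 and Krt19 reached group means of at most 0.0242 CPM. The epithelial, endothelial and fibroblast sums were all higher in the etoposide than in the control libraries of each genotype, as the levels of the 4 genes were, and their part in the result was not tested.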

How the data were processed

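RNA-seq was analysed for 12 libraries of RAW264.7 cells in 4 groups of 3, taken from the sample titles. The authors deposited whole-number counts per gene without normalization. The study's methods describe strand-specific libraries from total RNA after removal of ribosomal RNA, alignment of read pairs with HISAT2 and counting of unique pairs with HTSeq on a GENCODE annotation, whereas the submitters' processing notes name HISAT2, featureCounts and mm10. Versions, annotation release and strand setting are not given in the sources used here. Unique mapping lowers counts of near-identical genes. The labels name 2 RNA kits without saying which library used which.

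Of 32688 genes, 18066 passed filterByExpr of edgeR 4.0.16 and held 99.96% of the counts. TMM-scaled log2 CPM (prior count 3) were fitted with limma-trend (limma 3.58.1, R 4.3.3, robust moderation) over 4 group means, with 5 contrasts. P-values are two-sided, Benjamini-Hochberg adjusted over all genes, and calls are at 0.05. They measure the spread between libraries, which may be technical. The fitting script was tested on simulated data. Gene identifiers matched GENCODE M21 for 99.4% of genes. Totals of 29837255 to 61809316 counts set the precision, and intervals and floors cover counting error only. Every pair of replicates differed by more than counting noise.

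The 4 genes and the lists were chosen with earlier results of these data known. The genes themselves carry no test. Named genes were Tfeb, Tfe3, up to 3 rising and 3 falling list genes per contrast, called neighbours, the 10 largest rises per genotype, the 5 most alike genes and like-responding genes. Prkaa1, Fam20c, Mdm2 and Aen in the report, and most p53 list genes in the closing section, fall outside this rule and were chosen after their values were seen. Alternatives were edgeR, DESeq2 1.42.0, other scaling, filter, prior count, moderation, samples and a replicate block. Some genes of the lists are not reported here.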

Additional observations from a re-analysis of the deposited data

Results flagged for a closer look

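Outside the 4 genes, 46 of the genes read beside them responded to etoposide differently in DKO and Null cells, 36 with a DKO minus Null response below 0 and 10 with one above 0 (interaction of limma-trend with Benjamini-Hochberg adjustment over all genes, adjusted p from 1.14e-07 to 0.0496). Of all genes 9.45% were called, 6.39% below and 3.07% above 0. In the p53 list 18 of 35 tested genes were below and 1 above 0, and in the other lists and among the neighbours 3 and 7 of 101. Among 29 other genes with rises as large as those of the 4 genes 15 were below and 1 above 0, but these were chosen by rises that enter the interaction, so nothing is read from their count. Values below are DKO minus Null responses on the log2 scale, and a value above 0 also arises where a gene's change was more negative in Null than in DKO cells, as for Ptk2 and Pomk. Beside Epha2, Ptk2 was at 0.37, and in the SLC4 and acid-base lists Slc4a9 was at 1.88 and Car2 at 1.54. In the lists read beside Fam198b and Ak1, Pomk was at 0.52, Dtymk at -0.35 and Ckmt1 at 1.26. Ckmt1 had no control counts in either genotype and Slc4a9 1 in Null and none in DKO cells, so these fitted values depend on the prior count. Around Ak1, Fam102a was at -0.77, St6galnac4 at 0.55 and Eng at -0.99, and next to Slc4a11 4930402H24Rik was at 0.38. Tfeb, a gene targeted in the DKO line, was at 1.16.

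In the p53 list the values were -3.55 for Plk2, -2.05 for Pmaip1, -1.86 for Fas, -1.80 for Phlda3, -1.65 for Eda2r, -1.57 for Bbc3, -1.53 for Trp53inp1, -1.44 for Cdkn1a, -1.13 for Ccng1, -1.04 for Gadd45a, -0.95 for Aen, -0.89 for Sesn2, -0.86 for Ei24, -0.79 for Mdm2 and for Pidd1, -0.77 for Ercc5, -0.35 for Ppm1d and -0.34 for Apaf1, and 0.74 for Sesn1. Among the other genes with rises as large as those of the 4 genes they were -2.39 for Mab21l3, -2.29 for Cpt1c, -1.97 for Gm10505, -1.83 for Bmp8a, -1.80 for Kcng1 and for Gm16170, -1.77 for Robo3, -1.75 for Sec14l5, -1.63 for Trim7, -1.44 for Crhr2, -1.32 for ENSMUSG00000102727, -1.30 for Bfsp2, -1.26 for Cd80, -1.25 for Matn1, -0.77 for Cxcl2 and 1.93 for Il1b. Crhr2 had no control counts in either genotype and Gm10505 1 in Null and none in DKO cells. Bfsp2, Sec14l5, Kcng1, Matn1 and ENSMUSG00000102727 had 1 to 3 counts over each control group, and Bmp8a 3 and Plk2 2 over the Null control group. The fitted values of these genes therefore depend on the prior count.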

How the results depend on the processing

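The log2 differences of the 4 genes in the 5 contrasts moved by less than the spread between replicates with edgeR, DESeq2, library sizes alone, no filter, a prior count of 0.5, no robust moderation, no mitochondrial transcripts and the replicate block, as did those in the 4 contrasts between groups with the groups compared alone, a setting not run for the interaction. Leaving out 1 library at a time moved the Slc4a11 rise in Null cells (5.90 to 6.24) and its control difference (0.88 to 1.22), both most without Null control replicate 1, and the Fam198b rise in DKO cells (4.15 to 4.72) and its control difference (1.01 to 1.56), most without DKO control replicate 1. For Ak1 the control difference ran from -0.45 to 0.01 (without DKO control replicate 3 and 1), the etoposide difference from 0.07 to 0.39 (without DKO etoposide replicate 3 and 2) and the interaction from 0.24 to 0.69 (without DKO control replicate 1 and 3). Replicate numbers did not pair the libraries (correlations of deviations from -0.542 to 0.394). With the replicate block, 0 Eph receptors were called in Null cells, as with DESeq2 and with the groups compared alone, and no other count moved by over 1.5 times. With the groups compared alone, 2031 genes were called between control cells (3490 in the full fit), 1 Eph receptor in DKO cells and 9 neighbours in DKO cells (14 in the full fit). Over the fits without 1 library, called genes in Null and DKO cells ran from 0 to 1 and 1 to 3 for Eph receptors (0 in Null cells without Null control replicate 2 or 3, Null etoposide replicate 3 or DKO etoposide replicate 2, and 1 in DKO cells without DKO etoposide replicate 3). For ephrins they ran from 1 to 3 (1 without replicate 3 of either Null group) and 1 to 2 (2 without DKO etoposide replicate 3). In DKO cells the ranges were 5 to 9 for EphA2 partners (5 without DKO etoposide replicate 2), 1 to 3 for Golgi kinases (1 without DKO control replicate 2 or DKO etoposide replicate 1 or 2) and 9 to 14 for neighbours (9 without DKO etoposide replicate 1 or 3). For acid-base partners in Null cells the range was 2 to 4 (4 without DKO control replicate 1). Depth limits the low genes: in control libraries Slc4a11 rested on 21 to 63 counts and Fam198b on 22 to 108.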
